A study of Mus musculus with 12 samples.

Results

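Interferon-stimulated genes are the genes that cells switch on when interferons, secreted antiviral cytokines, bind their receptors, and 37 of them were followed here through demyelination and early repair of the mouse spinal cord. They were taken by mouse symbol from the 54838 Ensembl genes of the count tables, and all 37 were among the 31109 genes that passed the filter on low counts. The study compared control mice, Olig1+/+;Tet1fl/fl, with mice labelled Tet1 mutant, Olig1cre/+;Tet1fl/fl, so that every mouse carried floxed Tet1 alleles and the mutants also carried cre at one Olig1 locus, which is active in the oligodendrocyte lineage. All mice were at postnatal day 60. In each genotype, cord taken 4 days after a focal injection of LPC, or lysolecithin, which strips myelin where it is injected, was named 4dpl and set beside the unlesioned opposite side. Each of the 4 groups had 3 libraries, named here by group and replicate number, and nothing in the labels says which libraries came from the same mouse. The cord was dissociated and enriched for oligodendroglial cells on a Percoll gradient without sorting, so the counts are those of a mixture.

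Type I interferons signal through the receptor chains Ifnar1 and Ifnar2 and the kinases Jak1 and Tyk2 to transcription factors, Stat2 and Irf9 among them, that bind interferon-stimulated response elements in the promoters of their targets. Interferon gamma uses the receptor chains Ifngr1 and Ifngr2 and acts at gamma-activated sites, and some of the genes below, the Gbp and Irg GTPases among them, answer strongly to it. In the central nervous system the response is known from microglia, oligodendrocytes, astrocytes and infiltrating leukocytes, and it is studied for its bearing on demyelination and on microglia in ageing white matter.

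The response element was found in the promoters of some of these genes. Stretches that hold it are shown here for some of the members described below and, to compare the IFIT family, for Ifit1 and Ifit3b. Gbp3, Ifitm3, Oas3, Rsad2 and Stat2, also named below, hold it too and are not shown. RefSeq promoter windows of GRCm38.p6, from 250 bases before to 50 after the gene start, were at hand for 26 of the 37 genes, and not for Dhx58, Zbp1, Usp18, Oas2, Mx1, Mx2, Iigp1, Parp14, Ifi27, Ifi27l2a and Rtp4. The core GAAANNGAAA, searched on both strands, was present in 16 of the 26, against 3.99% of the 27025 genes with a window. In 9 genes a window held at least 2 cores. Each stretch below is given 5′ to 3′ along the strand of its gene, with 20 bases on either side where the start allows and the cores in capitals, which read TTTC on a stretch where the core lies on the opposite strand.
Isg15, chr4:156200855-156200916, minus strand, 3 overlapping cores from 78 bases before the start: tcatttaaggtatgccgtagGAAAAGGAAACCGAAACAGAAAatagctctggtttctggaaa
Ifit1, chr19:34640765-34640833, plus strand, 2 cores from 104 bases before the start: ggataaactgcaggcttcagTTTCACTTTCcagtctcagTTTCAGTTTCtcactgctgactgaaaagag
Ifit3, chr19:34583353-34583436, plus strand, 2 cores from 156 bases before the start: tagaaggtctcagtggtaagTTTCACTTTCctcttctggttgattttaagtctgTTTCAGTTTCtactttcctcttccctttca
Ifit3b, chr19:34607749-34607832, plus strand, 2 cores from 188 bases before the start: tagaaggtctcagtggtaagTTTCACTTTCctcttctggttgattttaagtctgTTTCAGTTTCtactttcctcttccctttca
Oas1a, chr5:120907526-120907565, minus strand, 2 overlapping cores from 20 bases before the start: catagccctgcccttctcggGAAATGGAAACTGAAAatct
Irgm1, chr11:48871421-48871470, minus strand, 2 overlapping cores from 30 bases before the start: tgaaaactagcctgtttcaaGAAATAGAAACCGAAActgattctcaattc
Igtp, chr11:58199502-58199551, plus strand, 1 core from 34 bases before the start: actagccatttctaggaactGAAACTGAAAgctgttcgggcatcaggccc
Gbp2, chr3:142620584-142620633, plus strand, 1 core from 59 bases before the start: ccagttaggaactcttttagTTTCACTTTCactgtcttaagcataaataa
Bst2, chr8:71537567-71537622, minus strand, 2 overlapping cores from 130 bases before the start: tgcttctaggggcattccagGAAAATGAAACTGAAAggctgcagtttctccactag
The Ifit3 and Ifit3b stretches are identical base for base. Those 2 genes also share 31.7% of the stretches of 100 bases, the read length, in the Ifit3 transcripts, and Oas1a shares 40.9% of its own with Oas1g, so the counts of these genes are uncertain where uniquely aligned reads were required. The gamma-activated site TTCNNNGAA was in the window of 6 of the 26 genes, against 9.55% of all genes. A match is a description of letters and says nothing of whether a factor was bound.

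**Figure D1:**
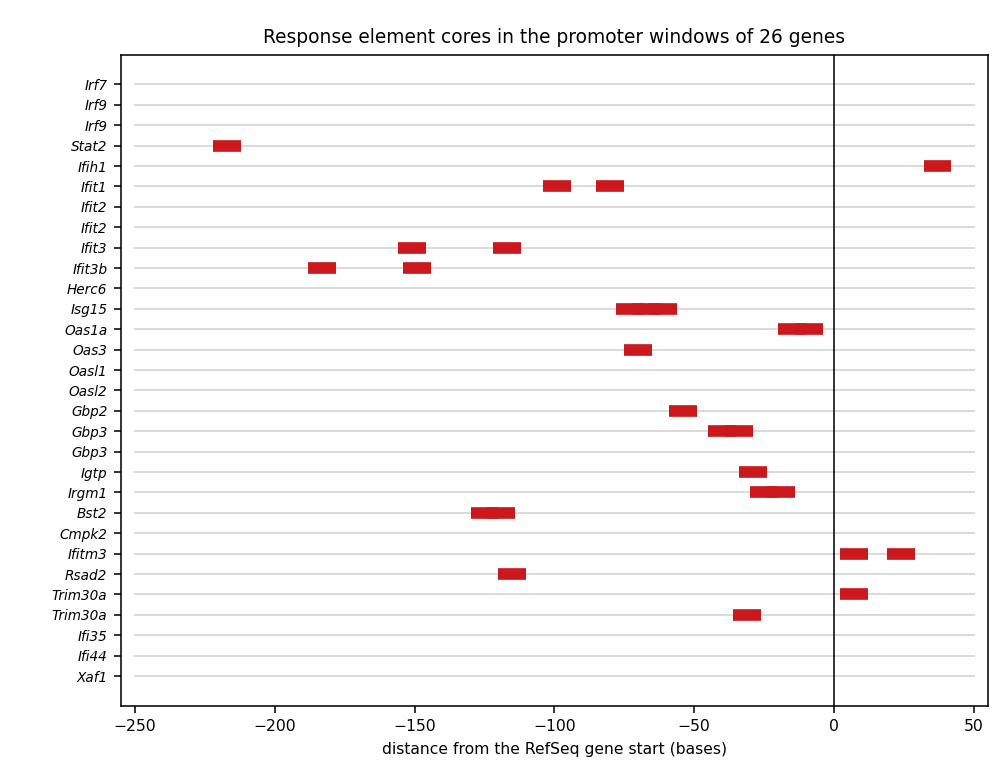
The 30 promoter windows of the 26 genes, 4 of which have more than 1 window, drawn as grey lines from 250 bases before to 50 bases after the RefSeq gene start (x axis, bases). Red blocks are response element cores, and most lie before the start, while those of Ifih1 and Ifitm3 and the core in 1 of the windows of Trim30a lie after it.

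Levels are given as CPM, which sets each count against the TMM-adjusted size of its library. Per kilobase of exon and averaged over the 12 libraries, Ifitm3, a membrane protein that blocks virus entry, was highest at 795 CPM per kb, followed by Ifi27l2a at 383 and Bst2, or tetherin, which holds budding virus at the cell surface, at 107. Isg15, a ubiquitin-like modifier, was at 75.5 and Ifi44 lowest at 0.698. Ifi44 still had a mean of 213 counts per library and Ifitm3 26805, so counting error was small beside the differences between libraries.

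One library decided how these genes looked. Control unlesioned replicate 1 had the highest level of 31 of the 37 genes among all 12 libraries and of all 37 within its group, whereas replicates 2 and 3 of that group were the lowest of the 12 for 19 and 11. Summed over the 37 genes the level was 6447 CPM in replicate 1, 1659 in replicate 2 and 1487 in replicate 3. The sum was between 2122 and 2504 CPM in the control at 4dpl, between 2583 and 2852 in the Tet1 mutant unlesioned and between 1849 and 3474 in the mutant at 4dpl. The control unlesioned group thus held both the top and the bottom of the range, and every other group lay within it.

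The gap was wide for nearly every gene. Replicate 1 exceeded the mean of replicates 2 and 3 by a median of 5.24-fold over the 37 genes, from 1.45-fold for Ifi27 to 12.3-fold for Gbp2, a guanylate-binding protein. On the log2 CPM scale the median difference was 2.43 over the 37 genes and −0.12 over all 31109 genes tested. The difference was above 1 for 34 of the 37 genes, against 11.5% of all genes. Among 18 other interferon-induced genes that are not in the list, such as Cxcl10, Gbp5, Ifi47 and Tap1, it was above 1 for 17, with a median of 2.16. The label of this library is kept. For the 37 genes as a set the comparisons below are given with and without it, and for single genes only in part.

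**Figure D2:**
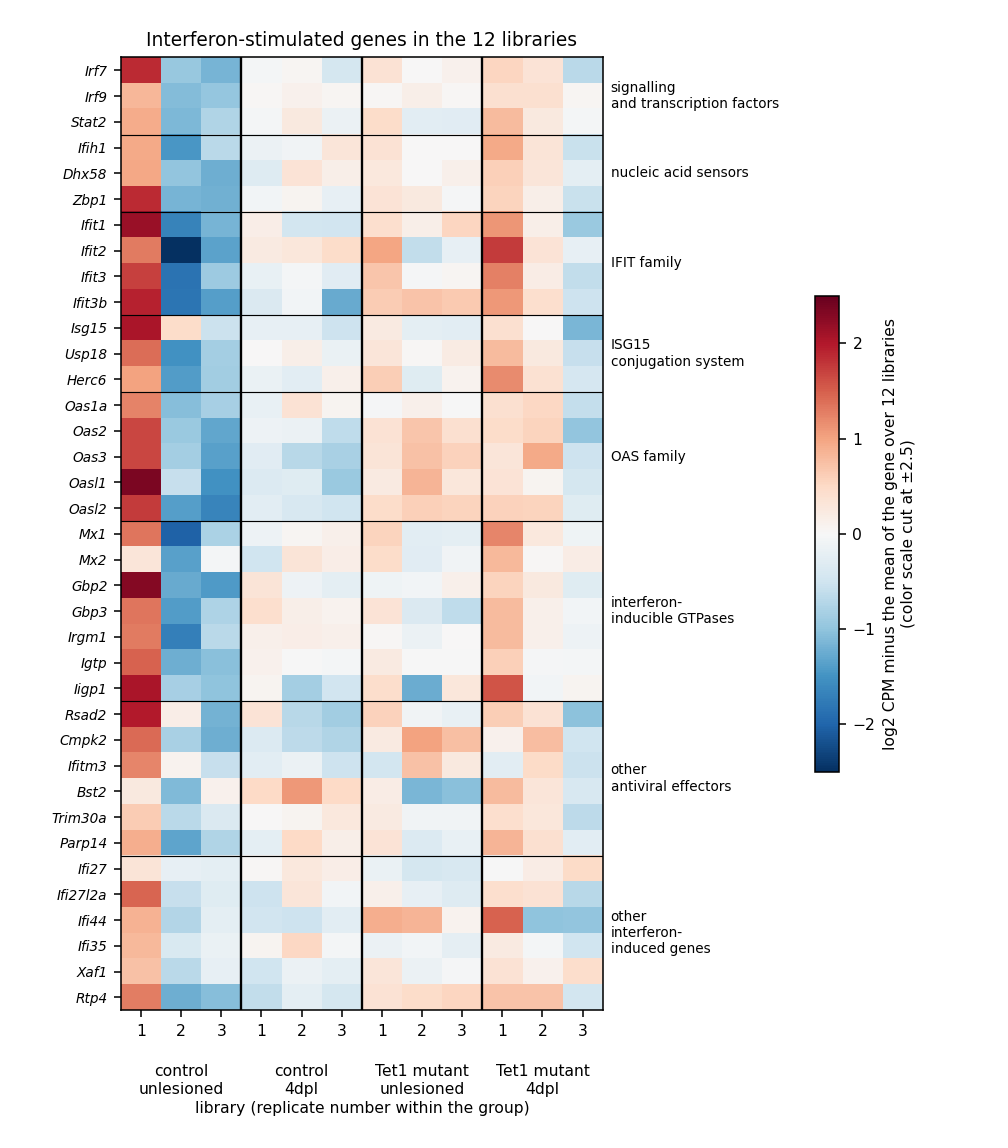
Level of each of the 37 genes (rows, grouped by role) in each of the 12 libraries (columns, 3 per group), as log2 CPM minus the mean of that gene over the 12 libraries, red above and blue below. Control unlesioned replicate 1 is red for every gene, control unlesioned replicates 2 and 3 are mostly blue, and Tet1 mutant 4dpl replicate 1 is the next reddest column.

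Markers of several leukocyte types stood with it. The summed level of 6 T cell markers was 88.9 CPM in control unlesioned replicate 1, the highest of the 12 libraries, against 42.6 and 32.5 CPM in replicates 2 and 3. NK cell markers, 5 genes, summed to 196 CPM there, also the highest, against 123 and 84.6. Plasmacytoid dendritic cells are known as abundant makers of type I interferon, and their 5 markers summed to 57.4 CPM there, against 47.3 and 45.1. This was the highest of the 12 libraries but only 1.24 times the mean of replicates 2 and 3. That ratio was close to those of neutrophil markers, 1.23, and microglia markers, 1.25. Macrophage and monocyte markers, 8 genes, summed to 6784 CPM, 2.34 times the mean of the other 2 libraries, and B and plasma cell markers summed to 358 CPM, 2.37 times that mean. The sum of 6 neutrophil markers was not set apart in this way, at 81667 CPM against 90791 and 41898, nor was that of 8 microglia markers, at 4448 CPM against 2332 and 4762. Macrophage and monocyte markers were higher in mutant unlesioned replicate 2, at 7322 CPM, and in mutant 4dpl replicate 2, at 6869 CPM. B and plasma cell markers were also higher in mutant unlesioned replicate 2, at 412 CPM. The interferon-stimulated genes summed to 2852 and 3197 CPM in those 2 libraries, against 6447 CPM in control unlesioned replicate 1. No listed marker of these types was at 0 in every library. The part of these cells in the level of the interferon-stimulated genes was not tested. In bulk samples fewer cells of a type and less RNA per cell cannot be told apart.

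**Figure D3:**
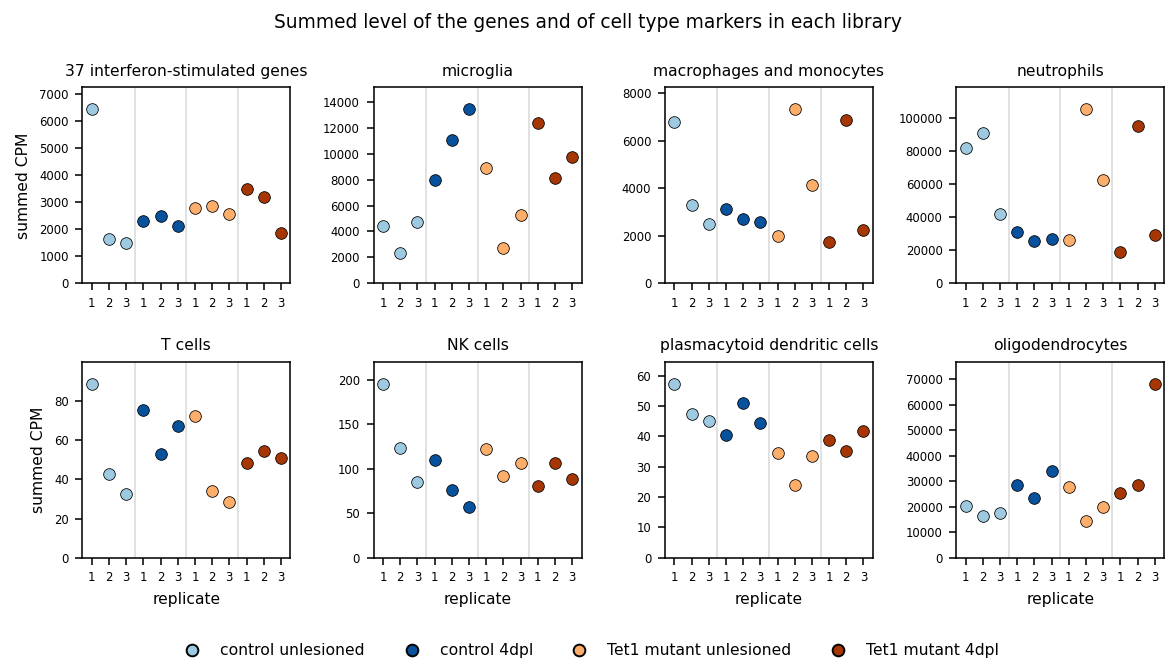
Summed CPM (y axis, linear from 0) of the 37 genes and of 7 marker lists in each of the 12 libraries (x axis, replicate number within each group, colored by group). Control unlesioned replicate 1 is alone at the top for the 37 genes at 6447 CPM and is also highest for the T cell, NK cell and plasmacytoid dendritic cell lists, while neutrophil sums range from 18764 to 105050.2 CPM across libraries of both genotypes.

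Total counts per library were between 34805086 and 67251544. Tet1 itself was between 11.7 and 18.3 CPM in the control and between 9.94 and 21.5 CPM in the libraries labelled mutant, so that the gene-level count, taken over all cells, did not separate the genotypes, and Olig1 was between 188 and 338 CPM and between 88.7 and 623 CPM. The genotype is taken from the labels. The 7 oligodendrocyte markers summed to at least 14492 CPM in every library, with the highest sum, 68390.0 CPM, in mutant 4dpl replicate 3.

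The first comparison asked how the genes changed after lesion in the control. None of the 37 was called, that is, passed an unadjusted p of 0.01 and a Benjamini-Hochberg adjusted p of 0.05 in edgeR's quasi-likelihood test, while 5.12% of all genes tested were called up and 5.01% down. The log2 fold changes ran from −1.53 for Oasl1 to 0.86 for Bst2, with 12 above 0, and their median of −0.36 was the same as that of all genes, −0.36. At an unadjusted p under 0.05 there were 2 genes, both lower at 4dpl, Isg15 and Oasl1. DESeq2 called 1 of the 37 down, where it called 8.42% of all genes up and 14.1% down.

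Per-library values show how the means arose. Irf7, the transcription factor that amplifies the response (chr7:141262706-141266481), was at 395, 55.9 and 48.5 CPM in the 3 unlesioned control libraries and at 104, 112 and 79.9 CPM at 4dpl. All 3 lesioned libraries therefore lay above 2 of the unlesioned libraries and far under the remaining library. The log2 fold change of Irf7 was −0.75 ± 0.61 (SE, n = 3 against 3 libraries; edgeR quasi-likelihood test, adjusted p = 0.381).

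The same order of libraries recurred across the families. Zbp1, a sensor of Z-form nucleic acid (chr2:173206612-173218923), was at 147, 18.0 and 17.6 CPM unlesioned and at 38.7, 42.4 and 35.2 CPM at 4dpl. Oasl2, an OAS-like protein (chr5:114896936-114912234), was at 309, 35.4 and 29.4 CPM unlesioned and at 76.5, 69.4 and 65.5 CPM at 4dpl. Irgm1, an immunity-related GTPase (chr11:48861968-48871683), was at 219, 27.4 and 56.1 CPM unlesioned and at 97.4, 99.6 and 97.3 CPM at 4dpl. In each of the 3 genes the lesioned libraries were close together and fell in the gap between replicate 1 and the others. Ifit3, of the family that binds foreign RNA caps (chr19:34583531-34588731), was at 169, 14.3 and 27.6 CPM unlesioned and at 45.4, 49.8 and 42.5 CPM at 4dpl.

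A few genes did not follow this order. Isg15 (chr4:156199424-156200818) was at 197, 66.5 and 33.1 CPM unlesioned and at 41.9, 41.8 and 33.5 CPM at 4dpl, so that replicate 2 was also above all lesioned libraries. Its log2 fold change was −1.34 ± 0.51 (SE, n = 3 against 3; edgeR quasi-likelihood test, adjusted p = 0.0896). Ifitm3 (chr7:141009586-141010770) was at 1161, 529 and 334 CPM unlesioned and at 415, 453 and 346 CPM at 4dpl. Ifi27l2a, a small mitochondrial protein (chr12:103442167-103443680), was at 447, 108 and 132 CPM unlesioned and at 113, 200.1 and 155 CPM at 4dpl. For Isg15 and Ifitm3 every lesioned library lay between replicates 2 and 3, and for Ifi27l2a they overlapped them in part.

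Without control unlesioned replicate 1 the direction turned. In the same fit to the 11 other libraries 15 of the 37 genes were called up and 0 down, where 12.2% of all genes were called up and 9.67% down, and 35 were above 0. Their median log2 fold change was 1.04, against −0.50 over all genes, and 23 genes that had been below 0 were now above it. The 2 libraries left in the unlesioned group share their estimate of the spread with the other groups. These calls rest on leaving out 1 library that was singled out by these very genes, so they describe the other 11 libraries and carry no weight of their own.

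By role, the 15 genes were spread over most of the list. All 3 signalling factors, Irf7, Irf9 and Stat2, were called up, as were 2 of the 3 sensors, Dhx58 and Zbp1. Of the GTPases 5 of 7 were called up, namely Mx1, an inhibitor of virus replication, with Gbp2, Gbp3, Irgm1 and Igtp. Ifit2, Usp18, the protease that removes Isg15 from proteins, Oas1a, Oasl2 and the ADP-ribosyltransferase Parp14 completed the set. Ifit2 had the highest log2 fold change, 2.28 ± 0.64 (SE, n = 2 against 3 libraries; edgeR quasi-likelihood test, adjusted p = 0.0251), with 5.74 and 18.1 CPM unlesioned and 53.1, 55.2 and 62.9 CPM at 4dpl. Irf9 had the smallest adjusted p, 0.00371, in the edgeR quasi-likelihood test, with a log2 fold change of 1.12 ± 0.19 (SE), from 46.2 and 50.1 CPM to 101, 106 and 102 CPM. For both genes the lesioned libraries lay wholly above the 2 unlesioned libraries.

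The other 22 members were not called even then. Isg15 had a log2 fold change of −0.32 ± 0.38 (SE) without replicate 1, Ifitm3 −0.06 ± 0.37 (SE) and Rsad2, or viperin, 0.09, and of the 6 genes grouped as other interferon-induced genes, Ifi27, Ifi27l2a, Ifi44, Ifi35, Xaf1 and Rtp4, none was called. In edgeR's quasi-likelihood test 1 of the 6, Rtp4, had an unadjusted p under 0.05.

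**Figure D4:**
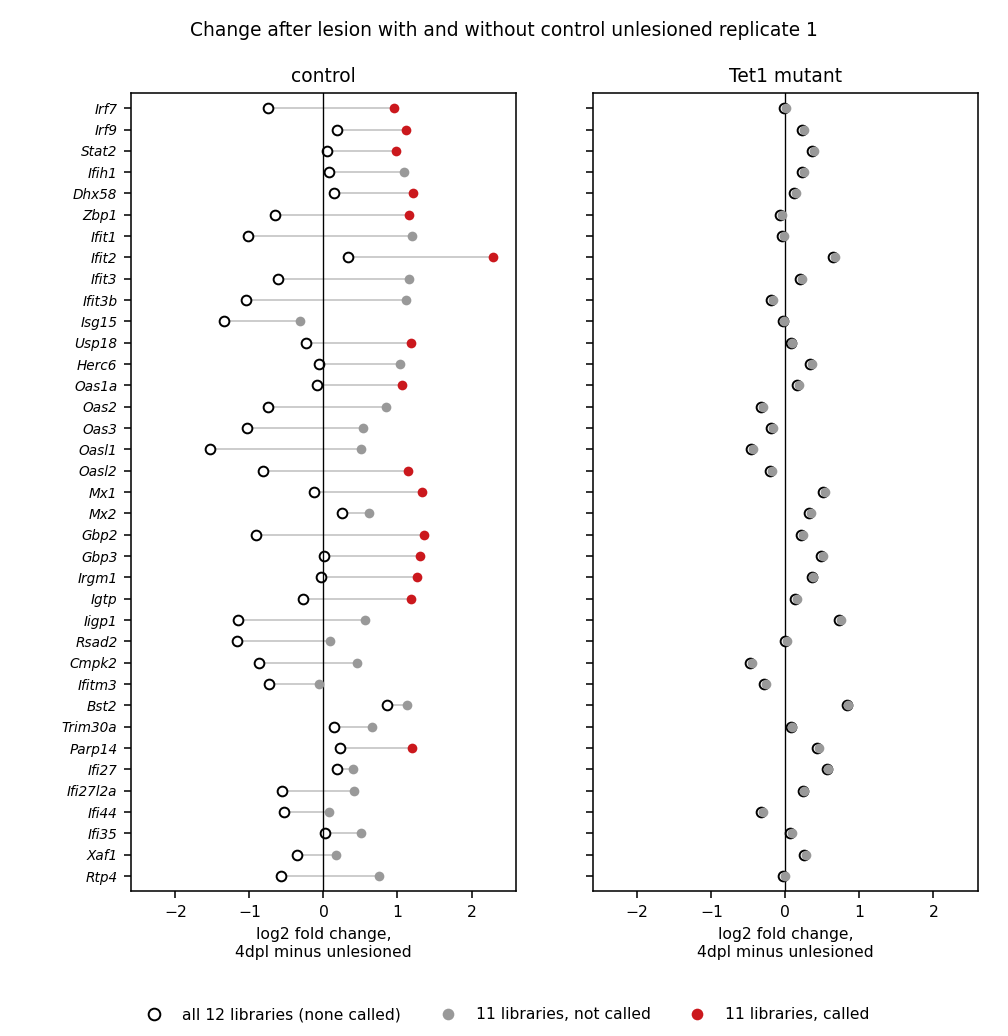
Log2 fold change, 4dpl minus unlesioned (x axis), of each of the 37 genes (y axis) in the control and in the Tet1 mutant. Open circles are the fit to all 12 libraries, in which none was called, and filled circles the fit without control unlesioned replicate 1, red where called (15 genes in the control, 0 in the mutant); in the control nearly every gene shifts to the right, and in the mutant the paired circles nearly coincide.

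In the Tet1 mutant none of the genes was called after lesion, and 1 gene had an unadjusted p under 0.05 in edgeR's quasi-likelihood test. Few genes of any kind were called by that test in this comparison, 0.0225% up and 0.113% down. DESeq2 called 0 of the 37, where it called 4.28% of all genes up and 12.7% down. The median log2 fold change was 0.13, against −0.18 over all genes, and 23 of the 37 were above 0. Of the libraries left out singly, mutant 4dpl replicate 1 alone turned this median below 0, to −0.12. The gene with a small p was Ifi27, which encodes a small membrane protein. Its values were 81.4, 66.8 and 69.1 CPM unlesioned and 89.9, 104 and 126 CPM at 4dpl, without overlap. Leaving out control unlesioned replicate 1 still gave 0 members called in the mutant, with a median of 0.16, while the share of all genes called rose to 7.72% up and 5.56% down.

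The mutant libraries overlapped for most of the list. Irf7 was at 138, 108 and 117 CPM unlesioned and at 156, 136 and 68.1 CPM at 4dpl. Oasl2 was at 127, 139.9 and 135 CPM and then at 138, 135 and 74.5 CPM, and Zbp1 at 51.4, 47.7 and 39.4 CPM and then at 59.3, 44.8 and 27.6 CPM. In all 3 genes mutant 4dpl replicate 3 was the lowest of the group and replicate 1 the highest. The pattern held more widely, since replicate 1 was the highest of the mutant 4dpl libraries for 28 of the 37 genes and replicate 3 the lowest for 32. The ratio of the highest to the lowest library within a group had a median over the 37 genes of 6.22 in the control unlesioned, 1.32 in the control at 4dpl, 1.32 in the mutant unlesioned and 2.17 in the mutant at 4dpl. Replicate 3, which was low for these genes, was the library with the highest oligodendrocyte sum, and the part of that in the result was not tested.

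Averaged over both genotypes, again none of the 37 was called, where 14.2% of all genes were called up and 18.6% down. The median log2 fold change was −0.08, against −0.28 over all genes, and 16 genes were above 0. DESeq2 called 0 of the 37, where it called 13.1% of all genes up and 26.3% down. At an unadjusted p under 0.05 edgeR's quasi-likelihood test gave 2 up and 0 down. The 2 were Bst2 and Ifi27. Bst2 (chr8:71534255-71537456) was at 102, 39.8 and 92.3 CPM in the control unlesioned and at 121, 182 and 122 CPM at 4dpl, without overlap. In the mutant it was at 98.4, 38.9 and 41.7 CPM unlesioned and at 148, 105 and 64.8 CPM at 4dpl, where replicate 3 fell below the highest unlesioned library. Its log2 fold change of 0.85 ± 0.30 (SE, n = 6 against 6 libraries) had an adjusted p of 0.0374 in edgeR's quasi-likelihood test but an unadjusted p of 0.0135, over the limit of 0.01. Bst2 passed both limits without mutant unlesioned replicate 1, where its log2 fold change was 1.15, and without mutant 4dpl replicate 3, where it was 0.99. Ifi27 had a log2 fold change of 0.37 ± 0.16 (SE, n = 6 against 6; edgeR quasi-likelihood test, adjusted p = 0.0726). Without control unlesioned replicate 1, 14 members were called up and 0 down, where 17.7% of all genes were called up and 20.2% down, with a median of 0.55 against −0.42. Of these 14, 12 were among the 15 called in the control without that library, and the other 2 were Bst2 and Ifi27.

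The genotypes were compared next, first without lesion. None of the 37 was called and none of the 31109 genes was, a background of 0%. The median log2 difference, mutant minus control, was −0.10 over the 37 genes and 0.02 over all, with 16 above 0. DESeq2 called 0 of the 37, where it called 0.0514% of all genes up and 0.09% down. At an unadjusted p under 0.05 edgeR's quasi-likelihood test gave 1 gene, Isg15, lower in the mutant with a log2 difference of −1.11. The mutant values of Isg15 were 56.5, 40.6 and 40.1 CPM, inside the range of the control. Its log2 difference was −0.12 when control unlesioned replicate 1 was left out. Without control unlesioned replicate 1 the median moved to 1.16 and 34 of the 37 genes were higher in the mutant, 25 of them at an unadjusted p under 0.05 in edgeR's quasi-likelihood test. Still none passed adjustment, with the smallest adjusted p at 0.0602, and the background stayed at 0%. The sign of the unlesioned difference between genotypes therefore depended on whether that library was counted.

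At 4dpl, where control unlesioned replicate 1 takes no part in the group means, the interferon-stimulated genes leaned towards the mutant but were not called. Mutant minus control, 34 of the 37 were above 0 with a median log2 difference of 0.32, against 0.05 over all genes. None was called and none of all genes was, a background of 0%, and none of the 37 had an unadjusted p under 0.05 in edgeR's quasi-likelihood test. DESeq2 called 0 of the 37, where it called 0.659% of all genes up and 0.0771% down. Control unlesioned replicate 1 does enter the common estimate of the spread, and without it the median was again 0.32, 7 of the 37 had an unadjusted p under 0.05, all higher in the mutant, and 0 were called, where 0.142% of all genes were. A fit to the groups compared gave 7 at an unadjusted p under 0.05 and voom with sample weights 6, with 0 called in either. The lean depended on single libraries. Without mutant 4dpl replicate 1 the median was 0.01 and 19 of the 37 were above 0, without control 4dpl replicate 3 it was 0.16, and without mutant 4dpl replicate 3 it was 0.53. None of the listed cell type markers was called in this comparison either, but some lists lay to one side of 0. All 6 neutrophil markers, with a median of 0.82, and all 7 oligodendrocyte markers, with 0.67, were above 0, whereas all 6 T cell markers, with −0.41, and all 4 markers of fibroblasts and meninges, with −1.03, were below 0. Microglia markers had a median of −0.08. The part of these cells in the lean was not tested.

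The 5 genes with the smallest p in this comparison were Xaf1, Rtp4, Oas3, Iigp1 and Cmpk2. Xaf1, a factor that favors apoptosis, was at 27.8, 35.2 and 33.1 CPM in the control and at 50.5, 42.0 and 52.9 CPM in the mutant, without overlap. Its log2 difference of 0.60 ± 0.30 (SE, n = 3 against 3) had an adjusted p of 0.76 in edgeR's quasi-likelihood test. Rtp4, a transmembrane protein with antiviral activity, was at 50.5, 65.3 and 57.4 CPM in the control and at 127, 127 and 56.7 CPM in the mutant. The mutant values of Rtp4 were thus split, 2 of them above and 1 within the control range.

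Oas3, an enzyme that makes the 2′-5′ oligoadenylate signal for RNase L, was at 41.9, 31.6 and 29.0 CPM in the control and at 62.7, 98.6 and 35.5 CPM in the mutant. Iigp1, an Irg GTPase that attacks parasite vacuoles, was at 5.51, 2.91 and 3.73 CPM and at 15.5, 4.99 and 5.48 CPM. Cmpk2, a mitochondrial nucleotide kinase that neighbors Rsad2, was at 49.6, 40.3 and 37.3 CPM and at 68.1, 108 and 44.4 CPM. In each of these 3 the lowest mutant library lay inside the control range. Their log2 differences were 0.94 ± 0.60, 1.10 ± 0.73 and 0.80 ± 0.54 (SE, n = 3 against 3), and the adjusted p of each was at least 0.853 in edgeR's quasi-likelihood test.

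The interaction asked whether the change after lesion differed between genotypes. None of the 37 genes was called, nor was any gene, a background of 0%, and none of the 37 had an unadjusted p under 0.05 in edgeR's quasi-likelihood test, while DESeq2 called 0. The median, mutant change minus control change on the log2 scale, was 0.42, against 0.07 over all genes, with 34 above 0. The 5 smallest p belonged to Iigp1, Isg15, Xaf1, Rsad2 and Ifi27. Iigp1 was at 21.5, 2.95 and 2.62 CPM in the control unlesioned and at 7.09, 2.21 and 6.34 CPM in the mutant unlesioned, and its interaction was 1.89 ± 1.02 (SE). That of Isg15 was 1.31 ± 0.71 (SE), that of Xaf1 0.61 ± 0.42 (SE), that of Rsad2 1.16 ± 0.88 (SE) and that of Ifi27 0.38 ± 0.31 (SE), all with an adjusted p of 1 in edgeR's quasi-likelihood test.

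The sign of the interaction turned as well. Rsad2 was at 739, 211 and 82.7 CPM in the control unlesioned and at 239, 117 and 103 CPM at 4dpl, against 281, 177 and 164 CPM and then 286, 242 and 91.9 CPM in the mutant, and every group overlapped the next. Without control unlesioned replicate 1 the median interaction over the 37 genes was −0.80, with 4 above 0, and 11 genes had an unadjusted p under 0.05, all negative, in edgeR's quasi-likelihood test. Iigp1 then had an interaction of 0.19, Isg15 of 0.31 and Rsad2 of −0.07. None of the 37 was called without that library either, with a background of 0%. A change after lesion in the control that is called without that library and is not called in the mutant is therefore not shown to differ between genotypes.

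The other genes of the pathway were counted from a list of 62, of which 56 passed the filter. Averaged over both genotypes 15 were called up and 1 down after lesion, beside the 14.2% and 18.6% of all genes given above, in the control alone 6 were called up and 0 down, and in the mutant 0 either way. Without control unlesioned replicate 1, of 57 that passed, 31 were called up and 1 down averaged over genotypes, where 17.7% of all genes were called up. In the control 32 were then called up and 0 down, where 12.2% of all genes were, and in the mutant 5 up and 0 down, where 7.72% were.

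The ligands were at low levels. Ifnb1 was between 0.0539 and 0.920 CPM over the 12 libraries and Ifng between 1.11 and 5.62 CPM, and both were highest in control unlesioned replicate 1. Ifna4, which never exceeded 0.255 CPM, was the 1 gene called down. Trex1, a DNase that restrains the response, is listed at 0 in every library, and all of its exon bases overlap those of Atrip, so nothing can be read from it.

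The receptors rose. Of 6 receptor genes, 5 were called up averaged over both genotypes, Ifnar1, Ifnar2, Ifngr1, Ifngr2 and Il10rb, the chain shared by the interleukin-10 and lambda interferon receptors, and the 5 were also called without control unlesioned replicate 1. Ifnar1 (chr16:91485238-91507441) was at 89.6, 36.3 and 46.9 CPM in the control unlesioned and at 142, 144 and 124 CPM at 4dpl. In the mutant Ifnar1 was at 75.4, 63.7 and 61.5 CPM unlesioned and at 143, 116 and 110.1 CPM at 4dpl. The groups did not overlap in either genotype, and replicate 1 was the highest unlesioned library here too. The log2 fold change of Ifnar1 was 1.06 ± 0.20 (SE, n = 6 against 6; edgeR quasi-likelihood test, adjusted p = 0.00403).

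Il10rb (chr16:91406164-91425834) was at 90.1, 36.2 and 53.6 CPM and then at 179, 168 and 154 CPM in the control, and at 66.9, 63.6 and 63.5 CPM and then at 127, 130.1 and 85.0 CPM in the mutant. Ifngr1 was at 272, 148 and 209 CPM and then at 338, 412 and 361 CPM in the control, and at 269, 182 and 238 CPM and then at 337, 346 and 332 CPM in the mutant. Both genes, like Ifnar1, had every lesioned library above every unlesioned library of the same genotype. Ifnlr1, the other chain of the lambda receptor, had a log2 fold change of −0.49 and was not called (edgeR quasi-likelihood test, adjusted p = 0.346).

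Nucleic acid sensing genes rose in part, with 5 of the 13 tested called up averaged over both genotypes, namely Tlr7, Tlr3, Mavs, Ticam1 and Sting1, and 10 of the 13 without control unlesioned replicate 1. Tlr7, a sensor of single-stranded RNA (chrX:167304929-167330558), was at 37.9, 15.0 and 41.6 CPM and then at 114, 103 and 122 CPM in the control, and at 76.2, 22.7 and 35.1 CPM and then at 139, 96.8 and 75.5 CPM in the mutant. Its log2 fold change was 1.53 ± 0.31 (SE, n = 6 against 6; edgeR quasi-likelihood test, adjusted p = 0.00453). Mavs, the adaptor on which Ifih1 and its relatives converge, had 1.09 ± 0.23 (SE; edgeR quasi-likelihood test, adjusted p = 0.00492).

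Of the kinases and STATs Tyk2 alone of 5 was called up, of the interferon regulatory factors outside the list Irf5 and Irf8 of 6, and of the negative regulators Socs3 of 5. These counts are averaged over both genotypes, where 14.2% of all genes were called up. The 18 interferon-induced genes outside the list gave 1 called up, Lgals3bp, and 0 down, with a median of −0.07. When control unlesioned replicate 1 was left out, these 18 genes gave 8 called up and a median of 0.54, the kinases and STATs 3 of 5, the negative regulators 3 of 5 and the interferon regulatory factors 2 of 6. Of all genes 17.7% were then called up.

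Markers of several cell types moved with the receptor and sensor genes. Of 8 microglia markers, 7 were called up after lesion averaged over both genotypes and 0 down, with a median log2 fold change of 1.08. Their summed level was between 2332 and 4762 CPM in the control unlesioned and between 7974 and 13431 CPM at 4dpl. In the mutant it was between 2729 and 8902 CPM unlesioned and between 8095 and 12361 CPM at 4dpl. Tlr7, Irf5 and Irf8 are known from microglia and other myeloid cells. Oligodendrocyte progenitor markers gave 3 of 4 called up, with a median of 1.07, oligodendrocyte markers 2 of 7, with 0.65, astrocyte markers 1 of 5, with 0.55, and markers of fibroblasts and meninges 2 up and 1 down of 4. The 6 neutrophil markers were all below 0, with a median of −0.92, and none was called. The part of any of these cells in these changes was not tested, and neither the receptors nor the 37 genes can be assigned to a cell type in these libraries.

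**Figure D5:**
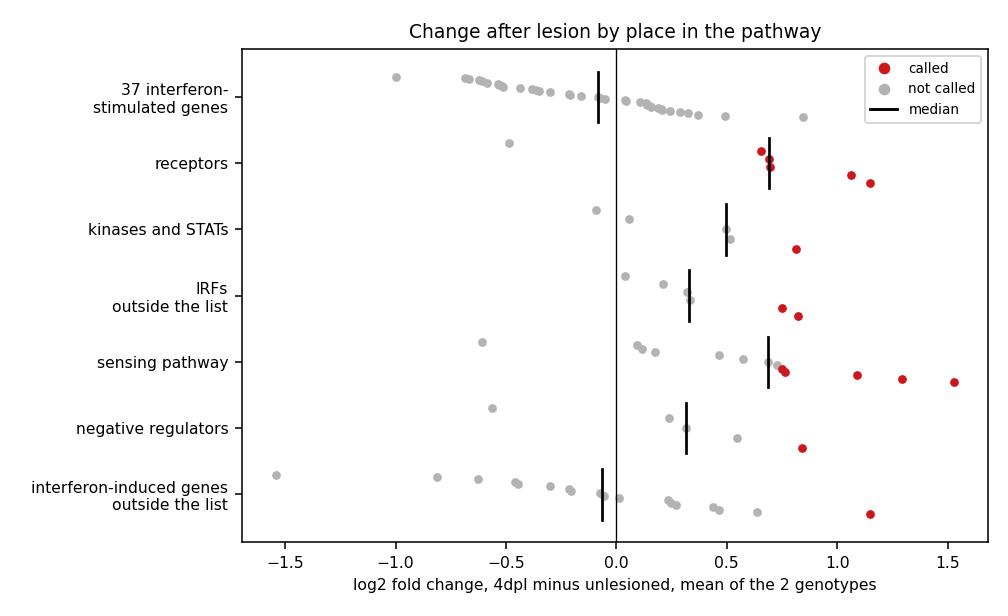
Log2 fold change after lesion averaged over both genotypes (x axis) for the 37 genes and for 6 lists of other pathway genes, with ligands left out (y axis); each point is 1 gene, red where called, and the bar is the median of the list. The receptors have 5 of 6 genes called, whereas the 37 genes have 0 called and a median of −0.08.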

How the data were processed

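RNA was sequenced from Percoll-enriched mouse spinal cord in 12 libraries, 3 per group. The authors aligned the reads to the mouse genome (BWA in the methods of the study, STAR in the submitters' processing notes), counted uniquely aligned reads on Ensembl GRCm38 exons with featureCounts, and deposited raw counts without normalization. The strand setting is not given in the sources used here. Total counts were between 34805086 and 67251544 per library, and a count of 0 or a low count carries counting error as well as the spread between libraries.

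Groups came from the sample labels. Counts were fitted in R 4.3.3 with edgeR 4.0.16 (filterByExpr, which left 31109 genes, TMM, glmQLFit with legacy set to true, glmQLFTest), with a mean per group and all 12 libraries in a single fit. A gene counted as called when its p-value was under 0.01 and its p-value after Benjamini-Hochberg adjustment over all genes tested was under 0.05. A standard error is the size of a log2 fold change over the square root of its F statistic. P-values measure the spread between libraries. Whether libraries of a group are separate mice is not stated in the labels. The 37 genes, their role groups, the pathway and marker lists and the tests were chosen with earlier results of these data known. Values in every library are given for the gene with the highest mean CPM in each role group, for called genes and for the 5 smallest p-values between genotypes at 4dpl and in the interaction, and Bst2, Ifi27, Irf9, Ifit2 and the pathway genes were named after their values were seen. Gene positions come from the deposited tables. Promoter windows come from RefSeq, GRCm38.p6. 1 gene of the pathway list is not reported here. Exon overlap and shared stretches of 100 bases were computed from GENCODE transcripts of GRCm38.

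Results were recomputed with RLE size factors, other filters and thresholds, DESeq2 1.42.0, fits restricted to the groups compared, legacy set to false, limma 3.58.1 voom with sample weights, replicate blocks and leaving out each library. The fits to all libraries were first checked on simulated data with known changes.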

Additional observations from a re-analysis of the deposited data

How the results depend on the processing

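Between genotypes, unlesioned and at 4dpl, and in the interaction, 0 of the 37 genes were called under every alternative, though the sign of their median turned in the unlesioned comparison and the interaction, beside the fit without control unlesioned replicate 1. The unlesioned median was 0.98 by voom with sample weights, 0.0042 fitted to the groups compared and 0.0086 without control 4dpl replicate 3. The interaction median was −0.52 by voom and −0.096 with the block by label number. It was −0.97 with the block by the study's number, in which control unlesioned replicate 1 does not enter the lesion change. After lesion in the control, voom with sample weights called 7 up, where 15.5% of all genes were. Down, 1 gene, Isg15, was called by DESeq2, where 14.1% of all genes were. It was also called down at an adjusted p under 0.10 alone, where 13.7% were. In the mutant voom called 1 up, Bst2, against 11.2% of all genes. Averaged over genotypes voom called 9 up, against 20.5% of all genes, an adjusted p under 0.10 gave 2 up, Bst2 and Ifi27, against 21.5%, and no filter gave 1 up, Bst2, against 10.5%. With 1 library left out, called genes ranged from 0 to 15 up in the control, from 0 to 1 up in the mutant and from 0 to 14 up and 0 to 1 down averaged over genotypes. The highest counts came without control unlesioned replicate 1. Bst2 was called without mutant unlesioned replicate 1, in the mutant too, and without mutant 4dpl replicate 3, Oasl1 was called down without control unlesioned replicate 3 and Ifi44 without mutant 4dpl replicate 1. The number of all genes called up in the control moved as well, from 1 gene without control unlesioned replicate 2 to 4124 without replicate 1. Without a filter the median of all genes averaged over genotypes was −0.83, and with at least 10 counts in every library 0.0039, while the median of the 37 genes was 0.011 and −0.32. With that stricter filter the median of the 37 genes also turned in the mutant after lesion, to −0.17, and between unlesioned genotypes, to 0.011, and with RLE size factors it was −0.0022 in the mutant. The cause of these changes was not tested.

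Whether the labels' replicate numbers pair libraries was not decided. Deviations of same-numbered libraries correlated from −0.07 to 0.19 and not all over 0.1, and by the study's own sample numbers from −0.09 to −0.02. Differently numbered libraries were not correlated as a reference, so these values cannot exclude pairs. A replicate block by label number called 1 gene, Bst2, up averaged over genotypes, against 15.6% of all genes. With the study's number as a block, in which control unlesioned replicate 1 has no partner of its genotype, 1 gene was called up in the control, against 2.45% of all genes, and 7 averaged over genotypes, against 9.06%.

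The median of the 37 genes after lesion in the control, −0.36 above, turned with all libraries kept, to 0.81 by voom (34 above 0) and 0.18 with the label block. With the block by the study's number it was 1.03 (35 above 0, 22 at an unadjusted p under 0.05 by edgeR). Control unlesioned replicate 1 has no partner in that block and does not enter its lesion estimate. The 1.03 thus adds little to the 1.04 of the fit without that library. Averaged over genotypes the 3 medians were 0.42, 0.13 and 0.49. Single log2 fold changes in the control turned positive in these fits too. Voom gave 0.63 for Irf7, 0.86 for Zbp1, 1.05 for Ifit3, 0.81 for Oasl2, 1.24 for Irgm1, 0.25 for Ifi27l2a and 0.12 for Oasl1. The block by the study's number gave 1.06 for Irf7, 1.19 for Zbp1, 1.25 for Ifit3, 1.17 for Oasl2, 1.33 for Irgm1, 0.044 for Ifitm3, 0.33 for Ifi27l2a and 0.73 for Oasl1, and interactions of −0.20 for Isg15 and −0.80 for Rsad2. The label block gave 0.18 for Zbp1, 0.22 for Ifit3, 0.12 for Oasl2 and 0.52 for Irgm1, and no filter 0.079 for Irgm1. With 1 library left out the values ran from −1.18 to 0.95 for Irf7, from −1.08 to 1.15 for Zbp1, from −1.09 to 1.16 for Ifit3, from −1.28 to 1.15 for Oasl2, from −0.47 to 1.26 for Irgm1, from −0.88 to 0.41 for Ifi27l2a and from −2.03 to 0.51 for Oasl1, and from −0.072 to 1.65 for the interaction of Rsad2. Apart from Irgm1, which was also positive without control 4dpl replicate 3, the turn came only without control unlesioned replicate 1. Counting only the 250 bases before the start, 14 of 26 genes held a response element core, against 3.46% of all genes.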
